A study of Mus musculus with 4 samples.

Results

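Heat shock proteins and their J-domain partners, the molecular chaperones that fold and refold other proteins, were examined in cardiac neutrophils. Members were chosen by gene symbol, as the HSP70, HSP110, HSP90, HSP60, HSP10 and small heat shock protein genes and the genes of the *Dnaja*, *Dnajb* and *Dnajc* families. The rule took 73 of the 25655 genes, and 61 of the 73 had a mean TPM (transcript level scaled by gene length and library total) of the 4 libraries over 1. By the compartment in which the protein mainly works, 45 members were cytosolic or nuclear (35 over the limit), 13 belonged to the endoplasmic reticulum (ER; all 13 over the limit) and 8 to mitochondria (all 8), and 7 were not assigned (5 over the limit).

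Chaperones of the HSP70 family bind unfolded stretches of a client protein and release them in a cycle driven by ATP. J-domain proteins bring the client and start ATP hydrolysis, HSP110 proteins exchange the nucleotide, and HSP90 acts later on kinases, receptors and other clients, while small heat shock proteins hold unfolded proteins without using ATP. The cytosolic set is induced through heat shock factors and the ER set through the unfolded protein response, and the mitochondrial set serves protein import and folding in mitochondria, which are few in the short-lived neutrophil.

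RNA-Seq libraries had been made from cardiac neutrophils, sorted as CD45.2+CD11b+Ly6G+ cells with high (SiglecF hi) or low (SiglecF lo) surface SiglecF from the hearts of WT and *Cd300a-/-* mice, both on the C57BL/6 background, on day 3 after myocardial ischemia and reperfusion (MI/R). The mice were adult males, all groups had undergone MI/R, and *Cd300a* was deleted in all cells of the *Cd300a-/-* mice rather than in neutrophils only. Each of the 4 groups had 1 library from a pool of 8 hearts, so no difference has a replicate check and no P value is given. Counts on genes summed to 9631901 in WT and 10988619 in *Cd300a-/-* SiglecF lo neutrophils, and to 19278243 in WT and 17632989 in *Cd300a-/-* SiglecF hi neutrophils. Of these, 58009, 54569, 137009 and 117505 counts, in the same order, lay on the chaperone genes.

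The labels were first checked against the targeted gene and the sorting markers. *Cd300a* was at 127 TPM (WT) and 1.06 TPM (*Cd300a-/-*) in SiglecF lo, and 163 TPM (WT) and 0.740 TPM (*Cd300a-/-*) in SiglecF hi neutrophils. *Siglecf* was at 354 and 405 TPM in WT and *Cd300a-/-* SiglecF hi neutrophils, against 11.3 and 15.3 TPM in the SiglecF lo neutrophils. The 8 neutrophil markers each had over 3 counts in every library. Their summed level was 156727 (WT) and 208799 TPM (*Cd300a-/-*) in SiglecF lo neutrophils, but 27673 and 32939 TPM in the SiglecF hi neutrophils, in each case with *S100a9* as the most abundant gene. *Ly6g*, used in the sort, was at 330.4 TPM (WT) and 889 TPM (*Cd300a-/-*) in SiglecF lo, and 11.1 TPM (WT) and 41.9 TPM (*Cd300a-/-*) in SiglecF hi neutrophils, so that it was higher in *Cd300a-/-* in both subsets and lower in SiglecF hi than in SiglecF lo neutrophils.

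Differences are given as the log2 of the ratio of (TPM + 1) between a pair of libraries, after the median of all 11472 genes with a mean TPM over 1 was taken off, so that the median of all genes is 0 after centring. The median taken off was -0.02 (SiglecF lo) and 0.03 (SiglecF hi neutrophils) for *Cd300a-/-* against WT. For SiglecF hi against SiglecF lo it was 0.57 in WT and 0.64 in *Cd300a-/-* neutrophils. The SiglecF lo libraries were the more unequal, since the 10 most abundant genes took 22.8% of TPM in WT and 26.7% in *Cd300a-/-* SiglecF lo neutrophils, against 12.3% and 11.8% in SiglecF hi neutrophils. A gene was counted as higher or lower past 0.5 in either direction. Intervals in parentheses are 95% counting intervals, which cover counting error only, since several reads can come from the same molecule and no identifiers told them apart. In sorted bulk samples, fewer cells of a type and less RNA per cell cannot be told apart.

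Chaperone transcripts were read in all 4 libraries. The 73 genes together held 0.365% of TPM in WT and 0.304% in *Cd300a-/-* SiglecF lo neutrophils, and 0.505% and 0.480% in the SiglecF hi neutrophils. *Cd300a-/-* SiglecF lo neutrophils had the lowest summed level in each compartment. The cytosolic genes summed to 2463 (WT) and 2134 TPM (*Cd300a-/-*) in SiglecF lo neutrophils, and to 3197 and 3093 TPM in SiglecF hi neutrophils. The ER genes summed to 911 and 744 TPM in SiglecF lo and to 1393 and 1272 TPM in SiglecF hi neutrophils, and the mitochondrial genes to 239 and 141 TPM in SiglecF lo and 411 and 372 TPM in SiglecF hi neutrophils. The centred log2 ratio of these sums for *Cd300a-/-* against WT in SiglecF lo neutrophils was thus -0.74 for the mitochondrial, -0.27 for the ER and -0.18 for the cytosolic genes. Without the most abundant gene of each compartment (*Hspe1*, *Hspa5* and *Hspa8*, which held between 34.2% and 48.7% of their sums) the ratios were -0.69, -0.17 and -0.22. In SiglecF hi neutrophils the ratios of the full sums were smaller, at -0.17, -0.16 and -0.07.

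**Figure D1:**
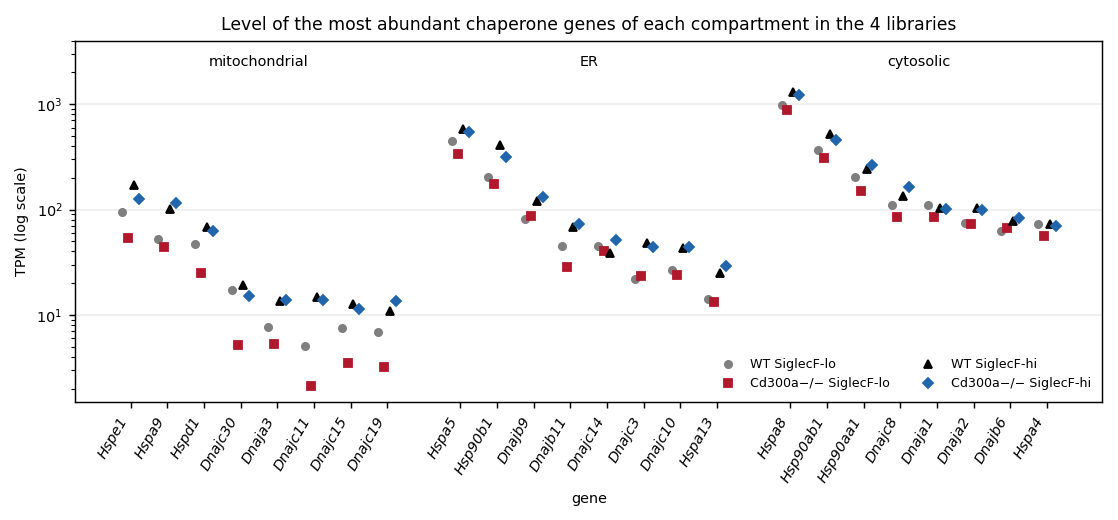
TPM, on a log scale, of the 8 most abundant mitochondrial, ER and cytosolic chaperone genes in the 4 libraries, with 1 point per library and no error bar because each group has 1 library. All 8 mitochondrial genes were lowest in *Cd300a-/-* SiglecF lo neutrophils, as were most of the cytosolic and ER genes shown. The cytosolic genes lay closer together. Of the members with a mean TPM over 1, 19 of 35 cytosolic and 9 of 13 ER genes were lowest in that library.

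*Cd300a-/-* against WT was compared in each subset to ask how loss of the receptor went with chaperone expression. In SiglecF lo neutrophils 6 of the 61 members were higher in *Cd300a-/-*, where 21.7% of all genes tested were higher. In the same comparison 21 of the 61 (34.4%) were lower, against 23.5% of all genes. The median of the members was -0.26. In SiglecF hi neutrophils 5 members were higher, against 6.35% of all genes (8.20% of the members), and 4 were lower, against 8.53% (6.56% of the members). The members' median was -0.05 there, and their shares lay near those of all genes. Over the 61 members, 40 (65.6%) had their lowest TPM in *Cd300a-/-* SiglecF lo neutrophils, as did 44.9% of all genes tested.

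SiglecF hi against SiglecF lo neutrophils was compared in each genotype. In WT 10 members were higher in SiglecF hi neutrophils, against 23.6% of all genes (16.4% of the members), and 14 were lower, against 23.9% (23.0% of the members). In *Cd300a-/-* neutrophils 19 members were higher, a share of 31.1% against 23.6% of all genes, and 4 were lower, a share of 6.56% against 24.7%. The split depends on the centring, since without it 32 members were higher and 3 lower in WT (all genes 54.4% and 9.38%), and 40 were higher and 1 lower in *Cd300a-/-* neutrophils (all genes 57.9% and 8.48%). CPM (counts scaled to the library total) with TMM factors, which set the trimmed mean difference of all genes to 0, gave 12 higher and 12 lower in WT (all genes 28.7% and 21.2%), and 26 higher and 4 lower in *Cd300a-/-* neutrophils (all genes 31.0% and 20.5%). In uncentred TPM, 42 of the 61 members were higher in both SiglecF hi libraries than in both SiglecF lo libraries, as were 64.3% of all genes. The comparison in *Cd300a-/-* and that of the genotypes in SiglecF lo neutrophils share the *Cd300a-/-* SiglecF lo library, so that a low value there enters both. Any SiglecF hi to SiglecF lo ratio between -0.57 and 0 in WT, or between -0.64 and 0 in *Cd300a-/-* neutrophils, lies above 0 without centring.

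**Figure D2:**
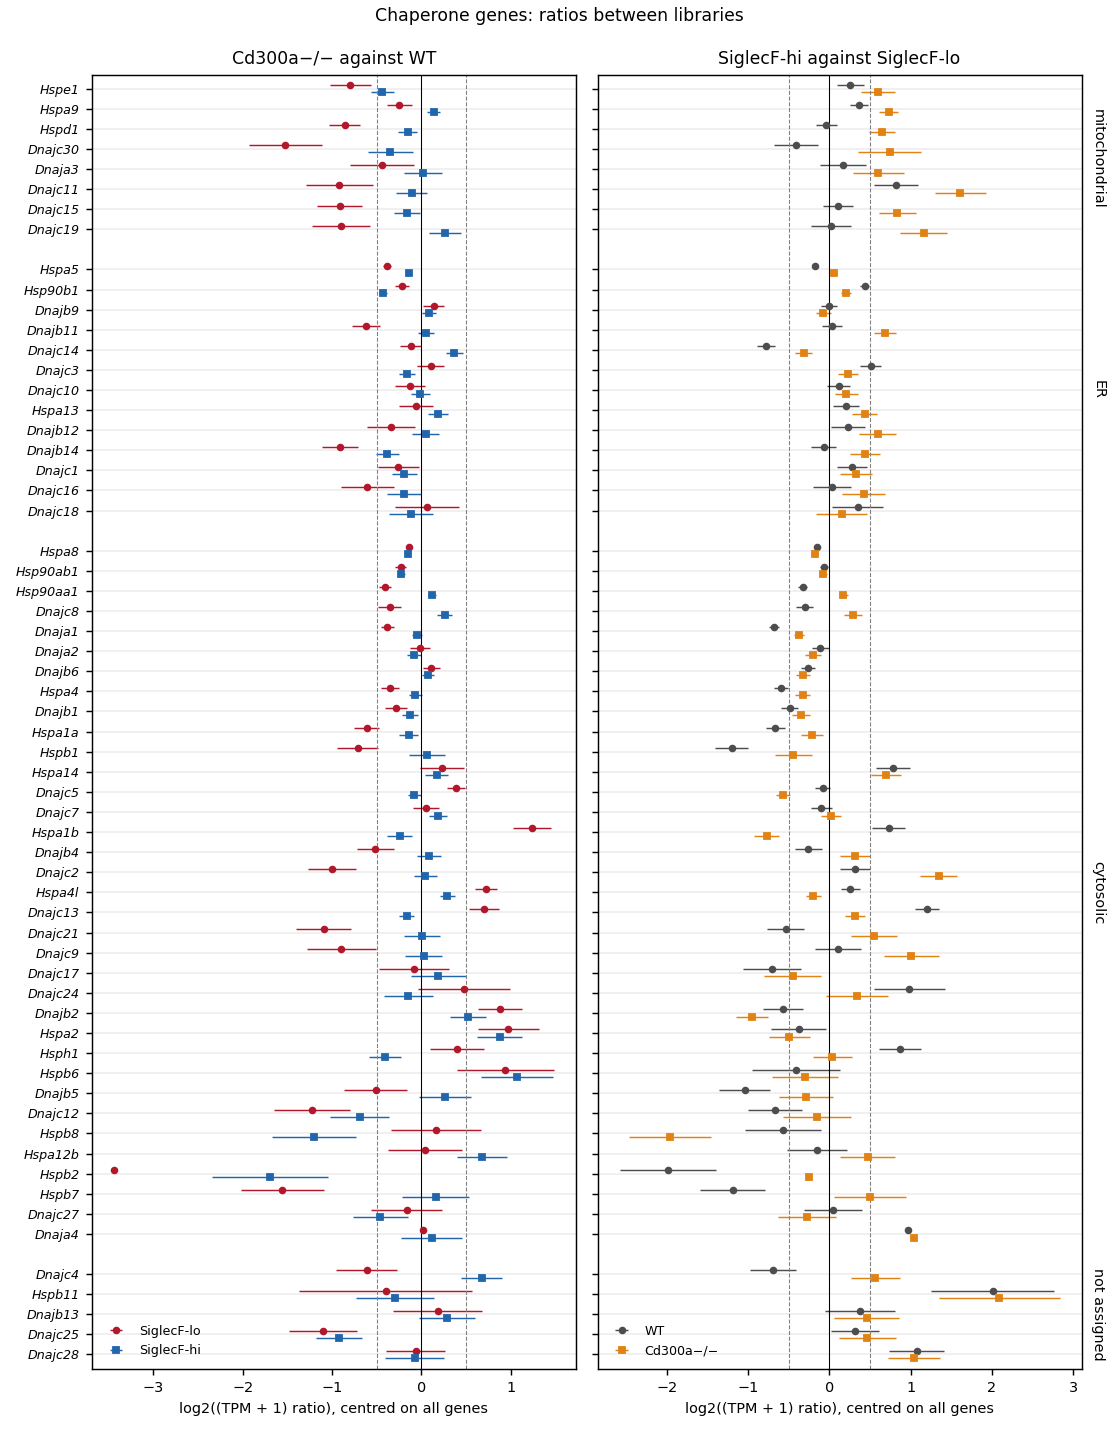
Centred log2((TPM + 1) ratio) of the 61 chaperone genes with a mean TPM over 1, for *Cd300a-/-* against WT in each subset (left) and SiglecF hi against SiglecF lo in each genotype (right), with 95% counting intervals as bars and dashed lines at 0.5 in either direction. Points without a bar, of *Hspb2* and *Dnaja4*, have 0 counts in a library compared, so their positions depend on the added 1 and are not exact. All 8 mitochondrial genes lie left of 0 for the genotypes in SiglecF lo neutrophils, from -0.25 to -1.52.

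The mitochondrial chaperones were lower in *Cd300a-/-* SiglecF lo neutrophils than in their WT counterpart. All 8 had a ratio below 0, with a median of -0.88, and 6 of the 8 (75%) were past 0.5, against 23.5% of all genes. Compartments were sorted by hand and members were chosen with earlier results of these data known, so the set of 8 depends on that sorting. Of the 5 members over the limit that were not assigned, 1 had a ratio above 0 and 4 below (median -0.40). In the same pair of libraries the summed endothelial markers went from 678 to 225 TPM, the cardiomyocyte markers from 87.4 to 45.2 TPM and the neutrophil markers from 156727 to 208799 TPM, and their part in the result was not tested; the whole marker lists are given below. Without centring the median was -0.90 and with TMM-scaled CPM it was -0.94, again with 6 past the threshold, while a pseudocount of 0.1, added to TPM in place of 1, put 7 past it. Of all genes 24.5%, 25.1% and 26.6% were lower under these settings. *Hspd1* (ENSMUSG00000025980), on chromosome 1 from 55116994 to 55127402, encodes HSP60, the barrel of the mitochondrial chaperonin, and was at 46.8 TPM (WT) and 24.9 TPM (*Cd300a-/-*) in SiglecF lo, and 68.1 TPM (WT) and 62.3 TPM (*Cd300a-/-*) in SiglecF hi neutrophils. Its counts were 635 and 373 in SiglecF lo and 1580 and 1292 in SiglecF hi neutrophils. *Cd300a-/-* SiglecF lo neutrophils were therefore the low library, with a ratio of -0.86 (-1.04 to -0.68) to WT, against -0.15 (-0.26 to -0.05) in SiglecF hi neutrophils. *Hspe1* (ENSMUSG00000073676), on chromosome 1 from 55127291 to 55130466, encodes HSP10, the lid of the same chaperonin. It was the most abundant mitochondrial member, at 94.8 TPM (WT) and 53.3 TPM (*Cd300a-/-*) in SiglecF lo, and 169 TPM (WT) and 127 TPM (*Cd300a-/-*) in SiglecF hi neutrophils. Both subunits were low in *Cd300a-/-* SiglecF lo neutrophils, and the ratio of *Hspe1* was -0.80 (-1.03 to -0.56) in SiglecF lo and -0.44 (-0.57 to -0.31) in SiglecF hi neutrophils. Positions are those of the files, on GRCm39 per the submitters' processing notes.

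*Hspa9* encodes mortalin, the matrix HSP70 that pulls imported proteins inward. It was at 52.9 TPM (WT) and 43.6 TPM (*Cd300a-/-*) in SiglecF lo, and 102 TPM (WT) and 114 TPM (*Cd300a-/-*) in SiglecF hi neutrophils. Here the subsets differed more than the genotypes did, and the ratio of *Cd300a-/-* to WT was -0.25 (-0.39 to -0.11) in SiglecF lo and 0.14 (0.06 to 0.21) in SiglecF hi neutrophils. Its J-domain partners were less abundant. *Dnajc19* and *Dnajc15* encode J proteins of the import motor at the inner membrane. *Dnajc19* was at 6.90 TPM (WT) and 3.17 TPM (*Cd300a-/-*) in SiglecF lo, and 10.9 TPM (WT) and 13.5 TPM (*Cd300a-/-*) in SiglecF hi neutrophils, with a ratio of *Cd300a-/-* to WT of -0.90 (-1.23 to -0.57) in SiglecF lo neutrophils. *Dnajc15* was at 7.58 TPM (WT) and 3.48 TPM (*Cd300a-/-*) in SiglecF lo, and 12.7 TPM (WT) and 11.5 TPM (*Cd300a-/-*) in SiglecF hi neutrophils, with a ratio of -0.92 (-1.17 to -0.66). Both were thus lowest in *Cd300a-/-* SiglecF lo neutrophils, by a wider margin than *Hspa9*. *Dnajc11*, which associates with the complex that shapes the cristae, went from 5.03 to 2.14 TPM in SiglecF lo neutrophils (-0.92, interval -1.29 to -0.55), while its SiglecF hi values were 14.8 and 13.9 TPM. *Dnaja3*, the main partner of *Hspa9* in folding, had a ratio of -0.44 (-0.80 to -0.08) in SiglecF lo and 0.02 (-0.20 to 0.23) in SiglecF hi neutrophils.

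*Dnajc30* (ENSMUSG00000061118), on chromosome 5 from 135093056 to 135094716, encodes a J protein of the respiratory chain and had the largest fall among members with a mean TPM over 10. It was at 17.1 TPM (WT) and 5.20 TPM (*Cd300a-/-*) in SiglecF lo, and 19.2 TPM (WT) and 15.2 TPM (*Cd300a-/-*) in SiglecF hi neutrophils, from 146, 49, 280 and 198 counts. *Cd300a-/-* SiglecF lo neutrophils stood apart from the other 3 libraries, and the ratio to WT was -1.52 (-1.93 to -1.12) in SiglecF lo and -0.35 (-0.59 to -0.10) in SiglecF hi neutrophils. *Bud23* overlaps *Dnajc30* over 758 bases on the other strand, and its counts moved alike, from 252 in WT to 97 in *Cd300a-/-* SiglecF lo neutrophils. The sources used here do not say whether counting used strand, so reads of these genes cannot be told apart. *Hspd1* and *Hspe1* overlap each other over 112 bases in the same way.

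The difference between the subsets was also taken directly, as the genotype ratio in SiglecF lo minus that in SiglecF hi neutrophils. It was below 0 for all 8 mitochondrial members, with a median of -0.73 and with all 8 counting intervals below 0. The other compartments leaned the same way. Among the 13 ER members 7 intervals lay below and 2 above 0 (median -0.25). Among the 35 cytosolic members 14 lay below and 8 above (median -0.14), and among the 61 members 30 below and 10 above. *Hspb2* and *Dnaja4*, with 0 counts in a library, had no interval and count on neither side. Among the 11472 genes tested, 3524 intervals lay below and 3607 above 0, with a median of 0.006. The mitochondrial differences ran from -0.36 (-0.62 to -0.09) for *Hspe1* to -1.18 (-1.65 to -0.70) for *Dnajc30*. The intervals hold counting error alone, and the spread between animals was not tested. Apart from centring, the same difference is the SiglecF hi to SiglecF lo ratio in WT minus that in *Cd300a-/-* neutrophils. The ratios between subsets that follow therefore restate it and are no separate result. In SiglecF hi against SiglecF lo neutrophils of *Cd300a-/-* mice all 8 mitochondrial members were higher, against 23.6% of all genes, with a median of 0.74 and a range from 0.60 (*Hspe1*) to 1.61 (*Dnajc11*), and all 8 were also past 0.5 under TMM-scaled CPM and without centring, beside 31.0% and 57.9% of all genes. In WT only *Dnajc11*, at 0.82 (0.55 to 1.09), was past 0.5, which is 12.5% of the 8 against 23.6% of all genes, and the median was 0.14 (0.71 without centring, when 7 of the 8 and 54.4% of all genes were past 0.5).

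Transcripts of the mitochondrial genome held 4.62% of TPM in WT and 4.41% in *Cd300a-/-* SiglecF lo neutrophils, and 6.10% and 5.77% in SiglecF hi neutrophils. Of 16 other genes of mitochondrial folding and quality control, 1 was higher and 5 (31.2%) were lower in *Cd300a-/-* SiglecF lo neutrophils, where 23.5% of all genes were lower, and the median was -0.10. The nucleotide exchange factors of mortalin, *Grpel1* and *Grpel2*, had ratios of -0.58 and -0.84, the import motor subunits *Pam16* and *Timm44* -1.05 (-2.07 to -0.03), from 11 and 4 counts, and -0.51, and the protease subunit *Clpx* -0.86. The gene that was higher was *Hscb*, a J protein of iron-sulfur cluster assembly, at 1.86 (1.18 to 2.54), from 13 and 63 counts. Genes outside the members are named here and below after their values were seen. *Trap1*, the mitochondrial HSP90, was at -0.45, and the proteases *Lonp1* and *Clpp* were at 0.39 and 0.23. The list as a whole thus went in no single direction. In SiglecF hi neutrophils none of the 16 was higher and 2 were lower in *Cd300a-/-* (*Grpel2*, -0.81, and *Clpp*, -0.55), where 8.53% of all genes were lower, with a median of 0.04. In SiglecF hi relative to SiglecF lo neutrophils, 8 were higher and 1 lower in WT (median 0.43) and 9 were higher and 1 lower in *Cd300a-/-* neutrophils (median 0.55), where 23.6% of all genes were higher in each genotype and 23.9% (WT) and 24.7% (*Cd300a-/-*) were lower. The lower gene in both was *Iscu*, the iron-sulfur scaffold, at -0.86 and -0.92.

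The ER chaperones are given next. In SiglecF lo neutrophils none of the 13 was higher and 3 (23.1%) were lower in *Cd300a-/-*, where 23.5% of all genes were lower. The median was -0.22, and in SiglecF hi neutrophils none passed 0.5 in either direction, beside 6.35% of all genes higher and 8.53% lower (median -0.12). *Hspa5* (ENSMUSG00000026864), on chromosome 2 from 34661982 to 34667559, encodes BiP, the HSP70 of the ER and the sensor partner of the unfolded protein response. It was the most abundant ER member, at 443 TPM (WT) and 333 TPM (*Cd300a-/-*) in SiglecF lo, and 585 TPM (WT) and 542 TPM (*Cd300a-/-*) in SiglecF hi neutrophils. The ratio of *Cd300a-/-* to WT was -0.39 (-0.43 to -0.34) in SiglecF lo and -0.14 (-0.17 to -0.11) in SiglecF hi neutrophils, so that both lay within 0.5. *Hsp90b1*, the ER HSP90 that folds Toll-like receptors and integrins, was at 205 TPM (WT) and 173 TPM (*Cd300a-/-*) in SiglecF lo, and 413 TPM (WT) and 312 TPM (*Cd300a-/-*) in SiglecF hi neutrophils. Its level was higher in both SiglecF hi libraries, and lower in *Cd300a-/-* than in WT, with ratios of -0.22 (-0.29 to -0.14) in SiglecF lo and -0.43 (-0.47 to -0.38) in SiglecF hi neutrophils.

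Among the ER J proteins, *Dnajb11*, a cofactor of BiP that binds unfolded clients, was at 44.8 (WT) and 28.3 TPM (*Cd300a-/-*) in SiglecF lo neutrophils (-0.62, interval -0.78 to -0.46), and at 68.7 and 72.5 TPM in SiglecF hi neutrophils. The others lower in *Cd300a-/-* SiglecF lo neutrophils were *Dnajb14*, a membrane J protein of ER-associated degradation (-0.91, interval -1.12 to -0.71), and *Dnajc16* (-0.60, interval -0.90 to -0.31). *Dnajb12*, the paralog of *Dnajb14*, had -0.34 (-0.61 to -0.07). *Dnajb9*, an inducible cofactor of BiP, was close between genotypes, with 0.14 (0.02 to 0.25) in SiglecF lo and 0.09 (0.01 to 0.16) in SiglecF hi neutrophils. *Dnajc3*, which restrains the kinase PERK, was at 22.1 TPM (WT) and 23.5 TPM (*Cd300a-/-*) in SiglecF lo, and 47.97 TPM (WT) and 43.6 TPM (*Cd300a-/-*) in SiglecF hi neutrophils. It was the ER member that was higher, past 0.5, in SiglecF hi than in SiglecF lo neutrophils in WT. Its ratio there was 0.51 (0.38 to 0.64), or 0.48 with a pseudocount of 0.1, with 0.23 (0.10 to 0.35) in *Cd300a-/-* neutrophils. *Dnajc14*, a membrane J protein that aids receptor export, was at 44.6 TPM (WT) and 40.4 TPM (*Cd300a-/-*) in SiglecF lo, and 38.5 TPM (WT) and 50.9 TPM (*Cd300a-/-*) in SiglecF hi neutrophils. It went the other way, at -0.78 (-0.89 to -0.67) in WT and -0.31 (-0.42 to -0.21) in *Cd300a-/-* neutrophils, and was -0.21 in WT without centring but 0.33 in *Cd300a-/-* neutrophils. It overlaps *Sarnp* over 2114 bases on the same strand and is uncertain for that reason. The reductase *Dnajc10* and the ATPase *Hspa13* lay within 0.5 in all 4 comparisons, as did *Dnajc1* and *Dnajc18*. In *Cd300a-/-* neutrophils *Dnajb11* (0.68) and *Dnajb12* (0.59) were higher in SiglecF hi than in SiglecF lo neutrophils. The number of ER members higher in SiglecF hi neutrophils depends on the scaling, and was 1 of 13 in WT and 2 in *Cd300a-/-* after centring (medians 0.11 and 0.23; 23.6% of all genes in each), 10 and 12 without it (medians 0.68 and 0.87; 54.4% and 57.9% of all genes), and 2 and 6 with TMM-scaled CPM (28.7% and 31.0% of all genes).

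Of 29 other genes of ER folding and the unfolded protein response, 28 were in the files and over the limit. In *Cd300a-/-* SiglecF lo neutrophils 5 of them (17.9%) were higher and 9 (32.1%) lower, against 21.7% and 23.5% of all genes, with a median of -0.14. The lower genes included the BiP cofactors *Sdf2l1* (-1.38) and *Sil1* (-0.78), the secreted factor *Manf* (-1.11), the degradation factor *Selenos* (-1.002), the disulfide isomerases *Pdia6* (-0.63) and *Pdia3* (-0.52), and calreticulin (*Calr*, -0.51). The higher genes were *Trib3* (1.47) and *Chac1* (0.85), which the transcription factor ATF4 induces, *Creld2* (0.79), the oxidase *Ero1a* (0.72) and *Eif2ak3*, which encodes PERK (0.52). *Atf4* itself (0.02) and *Xbp1* (-0.14) differed by less than 0.2. In SiglecF hi neutrophils none was higher and 3 were lower in *Cd300a-/-*, against 8.53% of all genes lower (median -0.07), with the largest fall in *Sdf2l1* (-0.54). Between subsets, 4 were higher and 5 lower in SiglecF hi neutrophils in WT (median 0.18), and 4 were higher and 1 lower in *Cd300a-/-* neutrophils (median 0.02). The shares over all genes were 23.6% higher in both genotypes, and 23.9% (WT) and 24.7% (*Cd300a-/-*) lower.

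The cytosolic chaperones were the largest set. In SiglecF lo neutrophils 6 of 35 (17.1%) were higher and 10 (28.6%) lower in *Cd300a-/-*, against 21.7% and 23.5% of all genes. The median was -0.14, and in SiglecF hi neutrophils 4 (11.4%) were higher and 3 (8.57%) lower, against 6.35% and 8.53% of all genes (median 0.02). *Hspa8* (ENSMUSG00000015656), on chromosome 9 from 40712280 to 40721383, encodes HSC70, the constitutive HSP70, and was the most abundant chaperone transcript in all 4 libraries. It was at 982 TPM (WT) and 879 TPM (*Cd300a-/-*) in SiglecF lo, and 1319 TPM (WT) and 1209 TPM (*Cd300a-/-*) in SiglecF hi neutrophils. The ratio of *Cd300a-/-* to WT was -0.14 (-0.17 to -0.10) in SiglecF lo and -0.15 (-0.18 to -0.13) in SiglecF hi neutrophils, a small difference of the same size in both. *Hsp90ab1*, the constitutive cytosolic HSP90, was at 371 TPM (WT) and 310.5 TPM (*Cd300a-/-*) in SiglecF lo, and 526 TPM (WT) and 458 TPM (*Cd300a-/-*) in SiglecF hi neutrophils. It too differed alike in the subsets, by -0.23 (-0.29 to -0.18) and -0.23 (-0.26 to -0.19). *Hsp90aa1*, the inducible form, had -0.40 (-0.47 to -0.34) in SiglecF lo but 0.12 (0.07 to 0.16) in SiglecF hi neutrophils.

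*Hspa1a* and *Hspa1b* encode the stress-inducible HSP70 and are near-identical neighbors on chromosome 17. Read by itself, *Hspa1b* was at 14.9 TPM (WT) and 35.7 TPM (*Cd300a-/-*) in SiglecF lo, and 38.1 TPM (WT) and 32.6 TPM (*Cd300a-/-*) in SiglecF hi neutrophils, and had the largest rise of all members in *Cd300a-/-* SiglecF lo neutrophils, 1.23 (1.02 to 1.45). *Hspa1a* was at 59.4 TPM (WT) and 37.9 TPM (*Cd300a-/-*) in SiglecF lo, and 55.6 TPM (WT) and 51.2 TPM (*Cd300a-/-*) in SiglecF hi neutrophils, a ratio of -0.61 (-0.76 to -0.47) in SiglecF lo neutrophils. The genes thus moved in opposite directions. Of the 75-base windows of the *Hspa1b* transcript, 55.8% also occur in *Hspa1a*, so the split of reads between them is uncertain and the sum is the safer value. Summed, they were at 74.3 (WT) and 73.6 TPM (*Cd300a-/-*) in SiglecF lo neutrophils, and at 93.6 and 83.8 TPM in SiglecF hi neutrophils. The ratio of the sum was 0.01 (-0.11 to 0.13) in SiglecF lo and -0.18 (-0.27 to -0.10) in SiglecF hi neutrophils, and no difference past 0.5 was left in either subset. For SiglecF hi against SiglecF lo the sum had -0.24 (-0.34 to -0.14) in WT and -0.46 (-0.56 to -0.35) in *Cd300a-/-* neutrophils, both above 0 without centring.

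Of the HSP110 genes, *Hspa4l* was at 14.1 TPM (WT) and 23.5 TPM (*Cd300a-/-*) in SiglecF lo, and 25.7 TPM (WT) and 32.3 TPM (*Cd300a-/-*) in SiglecF hi neutrophils. It was lowest in WT SiglecF lo neutrophils, and the ratio of *Cd300a-/-* to WT was 0.72 (0.60 to 0.85) in SiglecF lo and 0.29 (0.21 to 0.37) in SiglecF hi neutrophils. *Hsph1* had 0.40 (0.10 to 0.70) in SiglecF lo and -0.41 (-0.59 to -0.23) in SiglecF hi neutrophils, and *Hspa4* -0.35 (-0.45 to -0.26) and -0.07 (-0.14 to 0.01). The family therefore did not move as one. Between subsets in WT, *Hsph1* was higher (0.87) and *Hspa4* lower (-0.59) in SiglecF hi neutrophils, although uncentred TPM of *Hspa4* was near level, 72.5 (SiglecF hi) against 73.5 (SiglecF lo). *Hspa2*, an HSP70 best known from male germ cells, was higher in *Cd300a-/-* in both subsets, at 0.97 (0.63 to 1.31) and 0.87 (0.62 to 1.13).

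The cytosolic J proteins are given by their known roles. *Dnaja1*, *Dnaja2*, *Dnajb1*, *Dnajb4* and *Dnajb6* work with HSC70 and HSP70 in general folding. *Dnaja1* was at 112 TPM (WT) and 84.1 TPM (*Cd300a-/-*) in SiglecF lo, and 103 TPM (WT) and 101 TPM (*Cd300a-/-*) in SiglecF hi neutrophils. It was highest in WT SiglecF lo neutrophils, and past 0.5 for SiglecF hi against SiglecF lo in WT, at -0.68 (-0.74 to -0.62), with -0.37 (-0.44 to -0.31) in *Cd300a-/-* neutrophils. In TPM without centring the WT difference of *Dnaja1* was -0.11. Between genotypes in SiglecF lo neutrophils the ratios were -0.38 for *Dnaja1*, -0.29 for *Dnajb1*, -0.02 for *Dnaja2*, 0.11 for *Dnajb6* and -0.52 (-0.73 to -0.31) for *Dnajb4*. Only *Dnajb4* of these 5 was past 0.5, and none was in SiglecF hi neutrophils.

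J proteins of the ribosome, nucleus and translation formed the next group. *Dnajc2* binds the ribosome together with the HSP70 protein encoded by *Hspa14*, and was at 18.8 TPM (WT) and 8.71 TPM (*Cd300a-/-*) in SiglecF lo, and 35.6 TPM (WT) and 37.4 TPM (*Cd300a-/-*) in SiglecF hi neutrophils. The ratio of *Cd300a-/-* to WT was -1.002 (-1.27 to -0.74) in SiglecF lo and 0.04 (-0.09 to 0.18) in SiglecF hi neutrophils. *Hspa14* was at 23.6 TPM (WT) and 27.5 TPM (*Cd300a-/-*) in SiglecF lo, and 62.02 TPM (WT) and 71.1 TPM (*Cd300a-/-*) in SiglecF hi neutrophils. It did not move with its partner, at 0.23 (-0.01 to 0.48) and 0.17 (0.04 to 0.29), and was higher in SiglecF hi than in SiglecF lo neutrophils in both WT (0.78, interval 0.58 to 0.99) and *Cd300a-/-* (0.70, interval 0.51 to 0.88). *Dnajc21*, which acts in the maturation of the large ribosomal subunit, was at 20.5 TPM (WT) and 8.91 TPM (*Cd300a-/-*) in SiglecF lo, and 21.02 TPM (WT) and 21.6 TPM (*Cd300a-/-*) in SiglecF hi neutrophils. *Cd300a-/-* SiglecF lo neutrophils were again the low library, with a ratio of -1.10 (-1.41 to -0.79), and the value in SiglecF hi neutrophils was 0.01 (-0.19 to 0.21). *Dnajc9*, a chaperone of histones H3 and H4, was at 14.8 TPM (WT) and 7.36 TPM (*Cd300a-/-*) in SiglecF lo, and 24.2 TPM (WT) and 25.1 TPM (*Cd300a-/-*) in SiglecF hi neutrophils. It followed the same order, with -0.90 (-1.28 to -0.51) in SiglecF lo and 0.02 (-0.19 to 0.23) in SiglecF hi neutrophils. In *Cd300a-/-* neutrophils *Dnajc2* (1.34), *Dnajc9* (1.01) and *Dnajc21* (0.55) were accordingly higher in SiglecF hi than in SiglecF lo neutrophils. In WT *Dnajc21* was lower in SiglecF hi neutrophils, at -0.54 (-0.77 to -0.31), but 0.03 without centring. *Dnajc8*, a splicing factor, was at 110.4 TPM (WT) and 84.8 TPM (*Cd300a-/-*) in SiglecF lo, and 133 TPM (WT) and 162 TPM (*Cd300a-/-*) in SiglecF hi neutrophils. Its ratios of *Cd300a-/-* to WT were of opposite sign, -0.35 (-0.48 to -0.23) in SiglecF lo and 0.26 (0.18 to 0.34) in SiglecF hi neutrophils, and both lay within 0.5. *Dnajc17*, also linked to splicing, was at 17.96 TPM (WT) and 16.6 TPM (*Cd300a-/-*) in SiglecF lo, and 16.3 TPM (WT) and 19.1 TPM (*Cd300a-/-*) in SiglecF hi neutrophils. It was nearly level in TPM, and after centring it was -0.70 (-1.06 to -0.35) in WT and -0.45 (-0.80 to -0.10) in *Cd300a-/-* neutrophils for SiglecF hi against SiglecF lo. *Dnajc24*, which acts in the synthesis of diphthamide on elongation factor eEF2, was at 6.18 TPM (WT) and 8.84 TPM (*Cd300a-/-*) in SiglecF lo, and 20.1 TPM (WT) and 18.4 TPM (*Cd300a-/-*) in SiglecF hi neutrophils. Both SiglecF hi libraries exceeded both SiglecF lo libraries, with 0.98 (0.55 to 1.42) in WT and 0.34 (-0.05 to 0.73) in *Cd300a-/-* neutrophils.

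The J proteins of vesicles and protein degradation included a pair that was higher, past 0.5, in *Cd300a-/-* SiglecF lo neutrophils, *Dnajc13* and *Dnajb2*. *Dnajc13* acts in endosomal sorting and was at 8.01 TPM (WT) and 13.4 TPM (*Cd300a-/-*) in SiglecF lo, and 29.8 TPM (WT) and 26.97 TPM (*Cd300a-/-*) in SiglecF hi neutrophils. WT SiglecF lo neutrophils were the low library, and the ratio of *Cd300a-/-* to WT was 0.70 (0.53 to 0.87) in SiglecF lo and -0.17 (-0.25 to -0.08) in SiglecF hi neutrophils. Its ratio of SiglecF hi to SiglecF lo was 1.20 (1.06 to 1.35) in WT and 0.32 (0.19 to 0.44) in *Cd300a-/-* neutrophils. *Dnajc5*, the cysteine string protein of secretory vesicles, was at 34.1 TPM (WT) and 44.2 TPM (*Cd300a-/-*) in SiglecF lo, and 48.3 TPM (WT) and 46.5 TPM (*Cd300a-/-*) in SiglecF hi neutrophils. It had 0.39 (0.28 to 0.49) in SiglecF lo neutrophils, within 0.5, and -0.57 (-0.65 to -0.48) for SiglecF hi against SiglecF lo in *Cd300a-/-* neutrophils, which turned to 0.07 without centring. *Dnajb2*, which hands ubiquitinated clients to the proteasome, was at 9.11 TPM (WT) and 17.3 TPM (*Cd300a-/-*) in SiglecF lo, and 9.11 TPM (WT) and 13.7 TPM (*Cd300a-/-*) in SiglecF hi neutrophils. *Cd300a-/-* exceeded WT in both subsets, by 0.88 (0.63 to 1.13) in SiglecF lo and 0.52 (0.31 to 0.72) in SiglecF hi neutrophils, and after centring it was lower in SiglecF hi neutrophils in WT (-0.57, at equal TPM) and *Cd300a-/-* (-0.95). *Dnajc7*, which links HSP70 and HSP90, lay within 0.5 throughout. *Dnajb5* had -0.51 (-0.87 to -0.16) in SiglecF lo and 0.26 (-0.03 to 0.55) in SiglecF hi neutrophils, and was lower in SiglecF hi than in SiglecF lo neutrophils in WT (-1.04 (-1.36 to -0.73); -0.47 without centring). *Dnajc12*, a binding partner of aromatic amino acid hydroxylases, was low at 5.02 (WT) and 1.54 TPM (*Cd300a-/-*) in SiglecF lo neutrophils, a ratio of -1.23 (-1.65 to -0.80), and had -0.69 (-1.02 to -0.36) in SiglecF hi neutrophils.

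Between subsets, the cytosolic members had a centred median of -0.27 in WT, with 6 (17.1%) higher and 12 (34.3%) lower in SiglecF hi neutrophils, against 23.6% and 23.9% of all genes, but of 0.30 without centring, with 11 higher and 3 lower (all genes 54.4% and 9.38%). In *Cd300a-/-* neutrophils 6 (17.1%) were higher and 4 (11.4%) lower in SiglecF hi neutrophils, against 23.6% and 24.7% of all genes. Without centring 15 were higher and 1 lower there (all genes 57.9% and 8.48%). The median was -0.20 after centring, 0.44 without it and -0.02 with TMM-scaled CPM. The direction of the cytosolic set between subsets therefore depends on the scaling.

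The small heat shock proteins were the most uneven family. *Hspb1* (ENSMUSG00000004951), on chromosome 5 from 135916773 to 135918417, encodes HSP27 (HSP25 in mice), an abundant holdase of muscle and endothelium, and was at 69.3 TPM (WT) and 41.2 TPM (*Cd300a-/-*) in SiglecF lo, and 44.4 TPM (WT) and 47.3 TPM (*Cd300a-/-*) in SiglecF hi neutrophils. WT SiglecF lo neutrophils were the high library, and the other 3 lay between 41.2 and 47.3 TPM. The ratio of *Cd300a-/-* to WT was -0.71 (-0.94 to -0.48) in SiglecF lo and 0.06 (-0.14 to 0.26) in SiglecF hi neutrophils, and for SiglecF hi against SiglecF lo it was -1.20 (-1.40 to -1.0002) in WT and -0.45 (-0.67 to -0.22) in *Cd300a-/-* neutrophils. *Hspb2*, a partner of the myotonic dystrophy kinase in muscle, had 43 counts (10.03 TPM) in WT and 0 counts in *Cd300a-/-* SiglecF lo neutrophils, a fall of at least 15.8-fold when 3 counts stand for 0. It had 23 and 2 counts in WT and *Cd300a-/-* SiglecF hi neutrophils, a ratio of -1.69 (-2.34 to -1.04) that depends on the settings. It was -3.03 with a pseudocount of 0.1 and -0.90 with TMM-scaled CPM. It overlaps *Cryab* on the other strand. *Hspb7*, a small heat shock protein of heart muscle, had 58, 11, 56 and 60 counts in WT SiglecF lo, *Cd300a-/-* SiglecF lo, WT SiglecF hi and *Cd300a-/-* SiglecF hi neutrophils. The low library was again *Cd300a-/-* SiglecF lo, with -1.56 (-2.02 to -1.09), against 0.16 (-0.22 to 0.54) in SiglecF hi neutrophils. The SiglecF lo ratio of *Hspb7* was -2.36 with a pseudocount of 0.1 and -1.82 with TMM-scaled CPM. *Hspb6*, a small heat shock protein of smooth and striated muscle, went the other way, at 0.94 (0.40 to 1.48) in SiglecF lo and 1.07 (0.67 to 1.48) in SiglecF hi neutrophils. *Hspb8*, a partner of BAG3 in selective autophagy, was lowest in *Cd300a-/-* SiglecF hi neutrophils, with 17 counts, and had -1.20 (-1.67 to -0.73) there and 0.16 (-0.34 to 0.67) in SiglecF lo neutrophils.

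Markers of other cell types were read beside these values, since muscle and endothelium are rich in small heat shock proteins. The 12 cardiomyocyte markers summed to 87.4 (WT) and 45.2 TPM (*Cd300a-/-*) in SiglecF lo neutrophils, and to 85.97 and 141 TPM in SiglecF hi neutrophils. All 12 had over 3 counts in 3 libraries and 10 did in *Cd300a-/-* SiglecF lo neutrophils, where *Ckm* and *Tnnc1* were at 0. The most abundant were *Pln* at 13.5 TPM in WT SiglecF lo, *Myl2* at 12.5 TPM in *Cd300a-/-* SiglecF lo, *Tnnt2* at 13.2 TPM in WT SiglecF hi and *Mb* at 31.2 TPM in *Cd300a-/-* SiglecF hi neutrophils. The 10 endothelial markers, all above 3 counts in every library, summed to 678 (WT) and 225 TPM (*Cd300a-/-*) in SiglecF lo neutrophils, and to 402 and 519 TPM in SiglecF hi neutrophils, led by *Fabp4* at 412, 117, 259.8 and 349.8 TPM. Both lists had a lower sum in *Cd300a-/-* SiglecF lo neutrophils than in the WT library. *Hspb1*, *Hspb2* and *Hspb7* were lower there too, while *Hspb6* and *Hspb8* had ratios above 0 (given above), as did *Cryab* (0.11), and the part of these cells in the ratios was not tested. *Hspa12b*, an HSP70 gene of endothelium, had a ratio of *Cd300a-/-* to WT of 0.04 (-0.38 to 0.46) in SiglecF lo neutrophils, where the endothelial sum was the lower in *Cd300a-/-*. Its ratio was 0.68 (0.40 to 0.96) in SiglecF hi neutrophils, where the endothelial sum was the higher in *Cd300a-/-*.

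Fibroblast and macrophage markers were present as well. The 10 fibroblast markers, all above 3 counts, summed to 1375 and 1307 TPM in WT and *Cd300a-/-* SiglecF lo neutrophils and to 2723 and 1982 TPM in SiglecF hi neutrophils, led by *Dcn* at 302, 249, 586 and 465 TPM. The 10 macrophage markers, also all above 3 counts, summed to 3405 and 3195 TPM in SiglecF lo and to 8483 and 7426 TPM in SiglecF hi neutrophils, led by *C1qb* except in *Cd300a-/-* SiglecF lo neutrophils, where *C1qa* led at 755 TPM. These sums were more than 1000 TPM in every library and higher in the SiglecF hi libraries, which is the direction of most chaperones in uncentred TPM, and their part in the differences between subsets was not tested. Between genotypes in SiglecF lo neutrophils the macrophage and fibroblast sums were close, but single markers were not. Higher in *Cd300a-/-* past 0.5 were *Pdgfra* (0.57), *Postn* (0.83) and *Tcf21* (1.21) of the fibroblast list and *Mrc1* (0.69) of the macrophage list. *Cx3cr1* of the macrophage list was lower (-0.73), and the other markers of both lists lay within 0.5. Of 9 eosinophil markers, between 3 and 6 had over 3 counts, the granule gene *Epx* was at 0 in all 4 libraries, and *Ear2* led with 171, 85.9, 109.8 and 113 TPM, which made up nearly all of the sums of 173, 87.9, 119 and 121 TPM. The 8 lymphocyte markers summed to 8.76 and 9.005 TPM in SiglecF lo and to 10.99 and 18.6 TPM in SiglecF hi neutrophils, with *Nkg7* at 2.87 TPM, *Cd3d* at 4.13 TPM, *Cd79b* at 6.13 TPM and *Cd79b* at 7.12 TPM as the highest in this order, and *Trbc2* was at 0 throughout. At 0 in at least 1 library were also *Prg2*, *Prg3*, *Ear1*, *Ear6* and *Alox15* of the eosinophil list and *Cd3e*, *Cd79a*, *Ms4a1* and *Klrb1c* of the lymphocyte list.

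The members assigned to no compartment were mostly low. *Dnajc4* (ENSMUSG00000024963), on chromosome 19 from 6965279 to 6969940, encodes a J protein of uncertain role and was at 27.04 TPM (WT) and 17.1 TPM (*Cd300a-/-*) in SiglecF lo, and 24.7 TPM (WT) and 40.7 TPM (*Cd300a-/-*) in SiglecF hi neutrophils. It was lower with the deletion in SiglecF lo neutrophils, -0.61 (-0.95 to -0.27), and higher with it in SiglecF hi neutrophils, 0.67 (0.44 to 0.90). *Dnajc25* was lower in *Cd300a-/-* in both subsets, at -1.10 (-1.48 to -0.73) and -0.92 (-1.18 to -0.67), but it overlaps *Gm20503* on the same strand and is uncertain. Its SiglecF lo ratio was -1.71 with a pseudocount of 0.1 and -1.47 with TMM-scaled CPM. *Hspb11*, which encodes a subunit of intraflagellar transport, had 5 and 3 counts in WT and *Cd300a-/-* SiglecF lo and 85 and 62 counts in SiglecF hi neutrophils. Its SiglecF hi values were far above the SiglecF lo values, at 2.01 (1.25 to 2.77) in WT and 2.09 (1.35 to 2.83) in *Cd300a-/-* neutrophils. These ratios were 2.59 and 3.00 with a pseudocount of 0.1, and 1.64 and 1.65 with TMM-scaled CPM. *Dnajc28* showed the same order from 4, 3, 88 and 75 counts, at 1.07 (0.74 to 1.41) and 1.04 (0.72 to 1.36). At such low TPM the added 1 shrinks the ratios of *Dnajc28*, which were 2.57 and 2.77 with a pseudocount of 0.1 and 1.79 and 1.87 with TMM-scaled CPM. *Dnaja4*, a cytosolic J protein, had 0 counts in both SiglecF lo libraries and 60 and 62 counts in WT and *Cd300a-/-* SiglecF hi neutrophils, at least 11.7-fold and 14.9-fold higher. Of the 61 members, 7 were at or under 1 TPM in some library, and these passed the limit through the libraries in which they were high, so their differences are partly set by it. *Dnaja4*, just over the limit, had a mean TPM of 1.03, and *Hspa12a*, just under it, of 0.745.

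Of the members not over the limit, *Dnajb8*, *Dnajc5b* and *Dnajc5g* had 0 counts in all libraries. Others with low values were *Hspa12a*, *Hspa1l*, *Hspb9*, *Dnajb3*, *Dnajb7*, *Dnajc6*, *Hspb3* and *Dnajc22*, and the highest value among them was 1.85 TPM, of *Hspa1l* in *Cd300a-/-* SiglecF hi neutrophils. Several of these genes are known from testis, brain or muscle. *Hspa12a* was still detected in all libraries, with 11, 55, 52 and 17 counts in WT SiglecF lo, *Cd300a-/-* SiglecF lo, WT SiglecF hi and *Cd300a-/-* SiglecF hi neutrophils.

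The regulators of the cytosolic response were at modest levels. *Hsf1*, the main heat shock factor, was at 9.21 TPM (WT) and 7.62 TPM (*Cd300a-/-*) in SiglecF lo, and 15.03 TPM (WT) and 18.7 TPM (*Cd300a-/-*) in SiglecF hi neutrophils. Its ratio of *Cd300a-/-* to WT was -0.22 (-0.51 to 0.07) in SiglecF lo and 0.27 (0.10 to 0.45) in SiglecF hi neutrophils, both within 0.5. *Hsbp1*, which encodes a binding partner of heat shock factors, was lower in *Cd300a-/-* SiglecF lo neutrophils (-0.60, interval -0.74 to -0.46), and *Hsf2* had 0.18. Of the 5 genes of this list 3 passed the limit. None was higher and 1 lower in SiglecF lo, against 21.7% and 23.5% of all genes, and none was past 0.5 in SiglecF hi neutrophils, against 6.35% and 8.53% (medians -0.22 and 0.16). For SiglecF hi against SiglecF lo the medians were -0.29 in WT, with none past 0.5, and 0.34 in *Cd300a-/-* neutrophils, where *Hsf1* was higher (0.55), as were 23.6% of all genes in each.

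Other genes known to be induced by heat shock factor 1 gave no single direction. Of 14 measured in *Cd300a-/-* against WT SiglecF lo neutrophils 1 was higher and 5 (35.7%) were lower, against 23.5% of all genes lower (median -0.09). The largest fall was that of *Cacybp*, a cofactor of ubiquitin ligases, from 30.3 to 8.997 TPM (-1.63, interval -1.91 to -1.34), followed by the collagen chaperone *Serpinh1* (-0.99), the metallothionein *Mt2* (-0.87), the HSP90 partner *Chordc1* (-0.82) and *Mt1* (-0.62). *Hmox1*, heme oxygenase, was the higher gene (0.57). In SiglecF hi neutrophils none was higher and *Serpinh1* (-0.90) and *Mt2* (-0.64) were lower in *Cd300a-/-*, beside 8.53% of all genes (median -0.06). The fibroblast sums given above were 1375 (WT) and 1307 TPM (*Cd300a-/-*) in SiglecF lo, and 2723 and 1982 TPM in SiglecF hi neutrophils. Their part in the ratios of *Serpinh1* was not tested. In SiglecF hi relative to SiglecF lo neutrophils 1 was higher and none lower in WT (median -0.08), and 3 were higher and 1 lower in *Cd300a-/-* neutrophils (median -0.03), when 23.6% of all genes were higher in both and 23.9% (WT) and 24.7% (*Cd300a-/-*) lower.

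Cochaperones of HSP70 and HSP90 guide the cycle of both chaperones. *Ahsa1*, *Bag3*, *Chordc1*, *Fkbp4* and *Stip1* are also among the heat shock factor 1 targets above, so these lists are not separate. *Cryab* of those targets is also a cardiomyocyte marker. Of 26 over the limit, 3 (11.5%) were higher and 4 (15.4%) lower in *Cd300a-/-* SiglecF lo neutrophils, against 21.7% and 23.5% of all genes (median -0.06). The lower genes were *Chordc1*, the nucleotide exchange factor *Bag4* (-0.68), the cyclophilin *Ppid* (-0.57) and *Ptges3*, which encodes p23 (-0.54). The higher genes were *Gak*, a J-domain kinase that uncoats clathrin with HSC70 (0.64), the immunophilin *Fkbp5* (0.62) and *Ttc4* (0.55). In SiglecF hi neutrophils only *Ttc4* of the 26 was past 0.5, at -0.93, beside 6.35% of all genes higher and 8.53% lower (median -0.02). Between subsets, 7 were higher in SiglecF hi neutrophils and 1 lower in WT (median 0.04), and 9 were higher and 4 lower in *Cd300a-/-* neutrophils (median 0.07), beside all-gene shares of 23.6% higher in both genotypes and 23.9% and 24.7% lower. *Stip1* and *St13*, which join HSP70 to HSP90, were among the higher genes in both, at 0.60 and 0.58 in WT and 0.60 and 0.60 in *Cd300a-/-* neutrophils.

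The cytosolic chaperonin TRiC and its partner prefoldin, which fold actin and tubulin, had 14 genes, all over the limit. In *Cd300a-/-* SiglecF lo neutrophils none was higher and 4 (28.6%, near the 23.5% of all genes) were lower, *Pfdn2* (-0.90), *Cct5* (-0.80), *Vbp1* (-0.76) and *Cct3* (-0.68), with a median of -0.22. None of the 14 was past 0.5 in SiglecF hi neutrophils, where 6.35% of all genes were higher and 8.53% lower (median -0.04). SiglecF hi neutrophils had 4 (28.6%) higher and 2 lower than SiglecF lo neutrophils in WT (median 0.32), and 8 (57.1%) higher and none lower in *Cd300a-/-* (median 0.57), against 23.6% of all genes higher in each and 23.9% (WT) and 24.7% (*Cd300a-/-*) lower.

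Cell dissociation at 37 °C can induce immediate early and heat shock genes, so 19 such early genes were read beside the chaperones. They were high in all libraries, with *Fos* at 1169, 869, 1306 and 1243 TPM and *Junb* at 2259, 1973, 2757 and 3038 TPM in WT SiglecF lo, *Cd300a-/-* SiglecF lo, WT SiglecF hi and *Cd300a-/-* SiglecF hi neutrophils. None of the 19 was past 0.5 between genotypes in either subset, beside 21.7% of all genes higher and 23.5% lower in SiglecF lo and 6.35% and 8.53% in SiglecF hi neutrophils. The medians were -0.04 (SiglecF lo) and 0.13 (SiglecF hi). The largest difference was that of *Fos* in SiglecF lo neutrophils (-0.40, interval -0.44 to -0.37), and the part of dissociation in the chaperone values was not tested. For SiglecF hi against SiglecF lo, 1 was higher and 3 lower in WT (median -0.14), and 4 were higher and 1 lower in *Cd300a-/-* neutrophils (median -0.12), compared with 23.6% of all genes higher in both genotypes and 23.9% and 24.7% lower.

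Promoters were searched for the sequence elements of both induction pathways, since some members moved together. RefSeq promoters (GRCm38.p6), each 250 bases before to 50 after a transcription start, were at hand for 58 of the 73 members, with 75 starts. The heat shock element was taken as 3 alternating units, GAANNTTCNNGAA, on either strand. It was found in 6 of the 75 promoters (8%), of 4 genes, *Hspd1*, *Hspe1*, *Dnajb6* and *Hsph1*, and in 0.603% of all 32851 promoters. The ER stress element, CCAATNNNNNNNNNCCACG on either strand, was found in 3 of the 75 (4%), those of *Hspa5*, *Hsp90b1* and *Dnajc3*, and in 0.119% of all promoters. A match is a description of the sequence and not a binding site. The 4 genes with the heat shock element had ratios of *Cd300a-/-* to WT in SiglecF lo neutrophils of -0.86 (*Hspd1*), -0.80 (*Hspe1*), 0.11 (*Dnajb6*) and 0.40 (*Hsph1*), a median of -0.34 against -0.26 for the 45 other measured members with a promoter. The same medians for SiglecF hi neutrophils were -0.28 and 0.02. The 3 genes with the ER stress element had a median of -0.22 in SiglecF lo neutrophils and of -0.16 in SiglecF hi neutrophils, against -0.27 and 0.02 for the 46 others.

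*Hspd1* and *Hspe1* are transcribed away from each other. The gene models of the files, which overlap by 112 bases at this end, differ from those of RefSeq, where the starts are apart. The 215 bases between these RefSeq starts (chr1:55087933-55088147, plus strand, GRCm38.p6; *Hspd1* has a second RefSeq start farther on) are shown because both genes of the chaperonin were low in the same library. The *Dnajb6* promoter is shown as that of a cytosolic gene with the same element and a ratio near 0 (chr5:29735648-29735897, plus strand). Capitals mark the heat shock element, which occurs as 2 overlapping matches in the first sequence.
Hspd1 and Hspe1: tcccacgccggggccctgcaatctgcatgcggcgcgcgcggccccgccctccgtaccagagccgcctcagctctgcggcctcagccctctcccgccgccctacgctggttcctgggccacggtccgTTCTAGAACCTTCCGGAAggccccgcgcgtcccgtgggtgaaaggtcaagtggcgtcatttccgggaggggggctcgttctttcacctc
Dnajb6: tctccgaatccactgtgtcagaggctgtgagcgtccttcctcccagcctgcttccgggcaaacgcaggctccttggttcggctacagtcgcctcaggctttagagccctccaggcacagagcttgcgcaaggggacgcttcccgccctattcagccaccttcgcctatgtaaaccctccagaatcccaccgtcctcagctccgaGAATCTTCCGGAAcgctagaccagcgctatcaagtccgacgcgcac

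The promoters of the most abundant ER chaperones and of *Dnajc3* are shown in the 250 bases before the start, as the members in which the ER stress element was found. They lie at chr2:34771840-34772089 on the plus strand (*Hspa5*), chr10:86705445-86705694 on the minus strand (*Hsp90b1*) and chr14:118937682-118937931 on the plus strand (*Dnajc3*). Capitals mark the element, which occurs at 2 places in *Hsp90b1*, once on each strand.
Hspa5: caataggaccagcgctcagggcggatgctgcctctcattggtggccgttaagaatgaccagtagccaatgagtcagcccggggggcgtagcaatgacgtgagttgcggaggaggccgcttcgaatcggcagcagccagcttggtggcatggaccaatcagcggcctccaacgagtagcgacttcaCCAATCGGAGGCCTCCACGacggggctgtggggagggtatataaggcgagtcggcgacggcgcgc
Hsp90b1: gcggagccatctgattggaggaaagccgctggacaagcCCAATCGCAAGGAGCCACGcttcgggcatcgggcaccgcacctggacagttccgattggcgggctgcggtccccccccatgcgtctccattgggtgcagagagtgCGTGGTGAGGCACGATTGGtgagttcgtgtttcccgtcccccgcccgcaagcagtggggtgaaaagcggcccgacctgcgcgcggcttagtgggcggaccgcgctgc
Dnajc3: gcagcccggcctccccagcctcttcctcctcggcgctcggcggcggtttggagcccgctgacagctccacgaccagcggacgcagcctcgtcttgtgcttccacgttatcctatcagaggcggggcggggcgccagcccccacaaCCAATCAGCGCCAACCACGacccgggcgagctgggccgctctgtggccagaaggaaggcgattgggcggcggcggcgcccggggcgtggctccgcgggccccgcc

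Chaperone genes have many processed copies, which can draw or lend reads. Of the 61 members, 22 had at least 1 window of 75 bases, the number of sequencing cycles, that also occurs in a transcript of another gene of GENCODE M21, and 10 had over 10% of their windows shared. The share was 68.02% for *Hspa8*, 55.8% for *Hspa1b*, 54.2% for *Hspa1a*, 53.1% for *Hsp90aa1*, 47.3% for *Hspb1*, 33.7% for *Hspd1*, 33.3% for *Dnajb6*, 23.7% for *Hspe1*, 16.6% for *Dnaja1* and 14.4% for *Hspa14*. The length of each read of a pair is not stated in the sources used here, and shorter reads would share more. The levels of these 10 genes are uncertain at least to that extent, and the values of most partners, which are mostly pseudogenes, are not used here. The partner of *Hspa14*, *Gm45902*, which overlaps it on the same strand, had 24 counts in WT and 119 in *Cd300a-/-* SiglecF lo neutrophils. Of the mitochondrial members, *Hspa9* (0.336%) and *Dnajc19* (4.45%) shared few windows, and *Dnajc11*, *Dnajc15*, *Dnajc30* and *Dnaja3* shared none. Genes that overlap on the other strand were *Fxr1* for *Dnajc19*, with 743 counts in WT and 447 in *Cd300a-/-* SiglecF lo neutrophils, and *Coro7* for *Dnaja3*, with 398 and 698 counts. *Vasn* overlaps *Dnaja3* on the same strand over 10814 bases, with 31 counts in WT and 137 in *Cd300a-/-* SiglecF lo neutrophils, so *Dnaja3* is uncertain too. *Dnajc11* and *Dnajc15* had no overlapping gene in the files.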

How the data were processed

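The authors aligned the reads with CLC Genomics Workbench and deposited a count and a TPM per gene, on GRCm39 according to the submitters' processing notes. Aligner settings, annotation release and the strand used for counting were not given in the sources used here. The TPM and count values were used as the authors deposited them. RPKM and scaled CPM of the same files were not used. No read was aligned or counted again.

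Members were the genes whose symbol begins with Hspa, Hspb, Hspd, Hspe, Hsph, Dnaja, Dnajb or Dnajc and a digit, with *Hsp90aa1*, *Hsp90ab1* and *Hsp90b1*, sorted by hand into cytosolic, ER and mitochondrial compartments. Genes with a mean TPM over 1 were compared as log2((TPM + 1) ratio) after taking off the median over all genes that passed, and counted past 0.5. A count of 0 was taken as 3 for bounds. Counting intervals came from the counts. Members with a mean TPM over 10, or past 1 in a comparison, were named. The lists were heat shock factors, other heat shock factor 1 targets, cochaperones, TRiC and prefoldin, ER folding, mitochondrial folding, early genes, and markers of 7 cell types. Members and lists were chosen with earlier results of these data known. The alternatives were no centring, a pseudocount of 0.1, a mean TPM over 10, no filter, a threshold of 1, TMM-scaled CPM, and no copies.

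Promoters were searched in RefSeq (GRCm38.p6) and shared windows in GENCODE M21 transcripts, since no GRCm39 sequence was at hand. A search of protein tails and J-domain motifs was not run, because no protein sequences were used here. The scripts were tested on simulated data with known differences. Python 3.11.15, numpy 2.4.6, pandas 2.3.3, scipy 1.17.1, matplotlib 3.10.9, R 4.3.3 and edgeR 4.0.16 were used.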

Additional observations from a re-analysis of the deposited data

Results flagged for a closer look

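Among the 61 members with a mean TPM over 1, *Dnajc4* was the 1 past 0.5 in opposite directions between genotypes, at -0.61 (SiglecF lo) and 0.67 (SiglecF hi neutrophils). The difference of these ratios, SiglecF lo minus SiglecF hi, was -1.28 (-1.70 to -0.87), where the interval holds counting error only. Whether it exceeds the spread between pools was not tested.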

How the results depend on the processing

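Each group had 1 library, so the alternatives show how the counts of members depend on the settings and not how they would repeat. No paired analysis was possible because each group had 1 library, and whether both subsets of a genotype came from the same mice is not stated in the sources used here. Without centring, 32 members were higher and 3 lower in SiglecF hi than in SiglecF lo neutrophils of WT mice, and 40 higher and 1 lower in *Cd300a-/-* mice, while *Dnajc21* in WT turned to 0.0344 and *Dnajc5* in *Cd300a-/-* neutrophils to 0.0732. With a mean TPM over 10 as the limit, 39 of the 61 members were left, so fewer could be counted. Of these 39, the deletion went with 4 higher and 11 lower in the SiglecF lo subset. In the SiglecF hi subset it went with 2 higher and 0 lower. For SiglecF hi against SiglecF lo, 5 of the 39 were higher and 8 lower in WT, and 12 higher and 3 lower in *Cd300a-/-* mice. With no filter on low values, 16 of the 73 members were higher and 8 lower for SiglecF hi against SiglecF lo in WT, and 32 higher and 4 lower in *Cd300a-/-* mice. With a threshold of 1, *Cd300a-/-* SiglecF lo neutrophils had 1 higher and 7 lower, *Cd300a-/-* SiglecF hi neutrophils 1 higher and 2 lower, SiglecF hi against SiglecF lo 3 higher and 4 lower in WT, and 7 higher and 1 lower in *Cd300a-/-* mice. A pseudocount of 0.1 gave 25 higher and 7 lower for SiglecF hi against SiglecF lo in *Cd300a-/-* mice, beside 27.4% and 27.2% of all genes. An alternative in which a call also needed an interval clear of 0 was chosen after the data were seen, and gave 6 higher and 20 lower in *Cd300a-/-* SiglecF lo neutrophils. No all-gene share is given for this alternative, the limit of 10, no filter or the threshold of 1. The counts under these settings are therefore not set against all genes.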
